A study of Mus musculus with 12 samples.

Results

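The name resting basal keratinocytes stands for cells of dissociated paw epidermis with keratins of the deepest layer and few transcripts of replication and division genes. They were chosen here by their own transcripts, in all 12 libraries, among barcodes with 500 to 6000 genes and at most 5% of unique molecular identifiers (UMIs, each a captured transcript) on mitochondrial genes. A cell was taken when Krt5 and Krt14 together held at least 1% of its UMIs, Krt1 and Krt10 together held under 0.5%, Krt79 had 0 UMIs, Krt9 had under 3, the S-phase genes Hist1h1b, Hist1h1a, Pclaf and Esco2 together had under 3, the G2 and mitosis genes Ube2c, Cenpf, Ccnb1 and Cdc20 together had under 3, and Cd74 and Cd3e had 0. This rule found 29375 cells of the 125515 that passed the limits on genes and mitochondrial UMIs, or 23.4%, out of 140392 deposited barcodes. Between 1072 and 3373 of them came from each mouse. Because UMI counts of these genes chose the cells, the levels of those genes and the contrasts with other cell classes are given as a description, without a test. Comparisons between diets, which the rule did not use, were tested over mice.

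The mice were wild-type C57BL/6J of 16 to 18 weeks, with 3 mice of each sex on each diet. They had been placed at 6 to 8 weeks on a regular diet with 11% fat (RD) or a high-fat diet with 42% fat (HFD, EnvigoTD88137), and were kept on it for 10 weeks with no drug given. Epidermis was peeled from the glabrous hind paw skin after Dispase, dissociated with TrypLE and loaded on 10x Genomics droplets, 1 library per mouse. According to the file headers, Cell Ranger 6.1.0 counted the male libraries and 7.2.0 the female libraries, so that sex and counting software cannot be told apart. The diet comparisons of males and of females were each made within 1 version. Fits over both sexes held both versions, and the comparison of diet effects between the sexes also compares the versions.

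Basal keratinocytes sit on the basement membrane, to which hemidesmosomes anchor them through the α6β4 integrin and collagen XVII. They express the keratin pair Krt5 and Krt14, hold the stem and progenitor cells of the epidermis, and either divide or leave the layer, switch to Krt1 and Krt10 and differentiate upward. Notch ligands on basal cells and Notch receptors on the cells above take part in this switch, and Wnt and growth factor signals maintain the basal state.

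Marker genes were first described in the cells so labelled. Levels by class are CPM, a gene's count in the UMIs summed over the cells of a mouse and scaled to a fixed total, given as lowest, median and highest of 12 mice. Krt14 stood at 13399, 15833 and 20727 CPM and Krt5 at 3988, 4937 and 6217 CPM. Among markers that the rule did not use, Col17a1, which encodes collagen XVII, stood at 958, 1262 and 1415 CPM, against a median of 161 CPM in the 50880 suprabasal cells (Krt1 and Krt10 together at least 0.5% of UMIs). The suprabasal cells met the same limits on Krt79, Krt9, cell cycle and immune genes, so cycling suprabasal cells were left out. The median suprabasal cell held 7741 to 18484 UMIs, more than the median resting basal cell of the same mouse in all 12. Sparc, a secreted matrix glycoprotein, stood at 191, 262 and 422 CPM, and its level was 12.3 to 28.6 times the suprabasal level. Ccnd2, the D-type cyclin of G1, stood at 212, 452 and 739 CPM. In each of the 12 mice these 3 markers were higher in the resting basal cells than in the suprabasal cells, while Krt14 and Krt5 were part of the rule. The rule and the markers were both chosen with earlier results of these data known, so these levels are no separate check of the label. Transcripts of 5 cycling markers remained, at a sum of 26.2 to 106 CPM, and 4 of the 5 were higher than in these non-cycling suprabasal cells in all 12 mice. Also 4 of the 5 were lower than in S-phase cells in all 12. Markers of other cell types were low: the 6 markers of Langerhans cells (LCs) summed to 20.2 to 32.4 CPM, the 6 of T cells to 0.736 to 4.74 CPM, the 5 of melanocytes to 1.41 to 9.07 CPM and the 5 of Merkel cells to 2.82 to 7.66 CPM. The LC and T cell sums were partly set by the rule, which removed cells with a Cd74 or Cd3e UMI. Endothelial markers summed to at most 0.684 CPM in males and to 5.73 to 14.4 CPM in females, through Pecam1. Of the 5 fibroblast markers, Dcn held nearly all of a sum of 104 to 185 CPM, whereas Col1a1, Col1a2, Col3a1 and Lum had medians of 1.77, 0.072, 0 and 0 CPM.

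Cells just inside and just outside a limit were close in Col17a1, and those at the Krt5 and Krt14 limit were further apart in Krt15. With Krt5 and Krt14 at 1.0 to 1.2% of UMIs, 1762 cells held 1332 CPM of Col17a1 and 1755 CPM of Krt15, and 1172 cells at 0.8 to 1.0% held 1205 and 2863 CPM. With Krt1 and Krt10 at 0.4 to 0.5%, 864 cells held 947 CPM of Col17a1, 594 CPM of Krt15 and 2674 CPM of Krtdap. In 660 cells at 0.5 to 0.6% the values were 893, 522 and 2921 CPM. The median resting basal cell held 4152 to 6782 UMIs in male RD, 7476.5 to 9109 in male HFD, 6744 to 9220 in female RD and 9145 to 10408 in female HFD mice. The male diet groups did not overlap in this depth (p = 0.1, two-sided exact permutation test, which can go no lower with 3 mice a group), and the female groups did (p = 0.2, exact). The same held for the median share of mitochondrial UMIs, 3.21 to 3.47% in male RD and 3.58 to 3.77% in male HFD mice. Of 137882 distinct barcode sequences, 2492 (1.81%) occurred in more than 1 library, and 977 resting basal cells carried such a barcode. Doublets were not removed.

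Genes of adhesion to the basement membrane were higher than in the layers above. Genes named in this and the following descriptions of cell classes and subsets were chosen after their values were seen. All 23 detected genes of the hemidesmosome and basement membrane list were higher than in suprabasal cells in each of the 12 mice, with a median log2 ratio of 2.68. For comparison, 51.3% of 12225 genes at 1 CPM or more were higher in all 12 mice, 20.5% were lower in all 12, and the median log2 ratio over these genes was 0.28. Itga6 and Itgb4, the chains of the hemidesmosomal integrin, were 7.37 and 10.7 times as high (medians of 12 mice). Itgb1 and Itga2, integrin chains for collagen and laminin, were 10.9 and 21.0 times as high. The laminin chains Lamb3 and Lama3 were 13.9 and 5.65 times as high, and Npnt, a basement membrane ligand of integrins, 14.9 times. The intracellular linkers differed less, with Dst at 5.01 and Plec at 2.23 times the suprabasal level.

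Secreted and membrane signals followed. Jag2 and Dll1, ligands of Notch, were 16.3 and 11.5 times as high as in suprabasal cells, and Jag1 1.39 times. The receptors Notch2 and Notch3 were at 0.275 and 0.141 of the suprabasal level and lower in each of the 12 mice, whereas Notch1 was 1.19 times as high in the median mouse and higher in all 12. Of 24 Wnt signalling genes, 19 were higher in all 12 mice and 1 was lower. Among the ligands Wnt10a and Wnt3 were 6.69 and 2.74 times as high, while Wnt4 was 1.14 times as high and higher in 9 of 12 mice. Lgr6, a receptor that amplifies Wnt signals and is known from epidermal stem cells, was 13.9 times as high. Tgfb1 and Tgfb2, which encode TGF-β ligands, were 7.73 and 3.86 times as high. For growth factor receptors, Igf1r, Met and Fgfr2 were 4.56, 5.48 and 2.76 times as high and Egfr 1.52 times. The EGF receptor ligands Areg and Ereg were at 0.314 and 0.027 of the suprabasal level.

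Of 23 sensory and neurotrophic genes, 14 (60.9%) were higher and 6 (26.1%) lower than in suprabasal cells in all 12 mice, near the shares of all genes given above. Sema3c and Sema5a, semaphorins that steer axons, were 8.63 and 16.6 times as high as in suprabasal cells. Ntf3, the neurotrophin-3 gene, stood at 3.20, 7.43 and 12.7 CPM and was 14.1 times as high. Bdnf, which encodes another neurotrophin, was at 0.80 of the suprabasal level. Il34, the cytokine that maintains LCs, was at 0.158 of the suprabasal level and lower in each of the 12 mice.

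The other side of the contrast lay in differentiation and lipid synthesis. Krtdap and Sbsn, secreted proteins of differentiating keratinocytes, were at 0.284 and 0.057 of the suprabasal level. Of 25 detected genes of cholesterol and fatty acid synthesis, 23 were lower in all 12 mice, with a median log2 ratio of -1.65. Sqle and Hmgcs1, enzymes of sterol synthesis, were at 0.153 and 0.325 of the suprabasal level, and Fasn, the fatty acid synthase, at 0.372. Cdkn1a, an inhibitor of the cell cycle, was at 0.348. Cytosolic ribosomal protein genes were higher in all 12 mice for 62 of 76 genes, with a median log2 ratio of 0.24 that lay slightly below that of all genes.

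**Figure D1:**
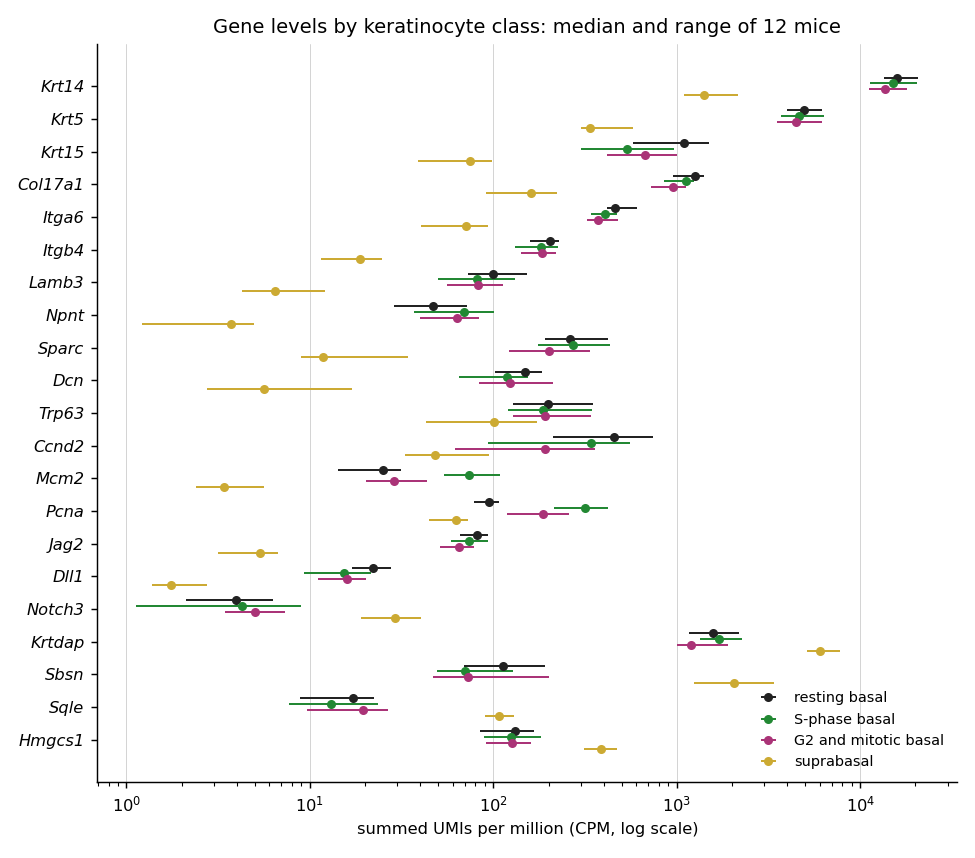
Levels of 21 genes on a log axis of CPM in resting basal, S-phase basal, G2 and mitotic basal and suprabasal cells, with points at the median and lines from the lowest to the highest of 12 mice. Adhesion genes and Notch ligands lay close together in the 3 basal classes and far above the suprabasal level, Mcm2 and Pcna were highest in S-phase cells, and Notch3, Krtdap, Sbsn, Sqle and Hmgcs1 were highest in suprabasal cells.

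Resting cells were also compared with the cycling cells of the same layer. The gate without its limits on cell cycle genes also held 3327 S-phase and 8671 G2 and mitotic cells. Against S-phase cells, 4.73% of the 12225 genes were higher and 10.6% were lower in all 12 mice, and against G2 and mitotic cells 12.3% and 22.3%. Krt15, a keratin known from quiescent basal and hair follicle stem cells, stood at 574, 1095 and 1498 CPM, was 1.75 times as high as in S-phase cells and was higher in each of the 12 mice. Ccnd2 was 1.53 times, Dst 1.48 times, Dll1 1.57 times and Fst, which encodes the activin inhibitor follistatin, 1.77 times as high, each in 12 of 12 mice. Ptn, a heparin-binding growth factor, and Npnt were at 0.649 and 0.683 of the S-phase level, in 12 of 12 mice. All 16 genes of replication licensing and S phase were lower than in S-phase cells in each mouse, but 15 of the 16 were higher than in suprabasal cells. The suprabasal cells were held to the same UMI limits on cell cycle genes. Mcm2, a subunit of the replicative helicase, was at 0.375 of the S-phase level and 7.38 times the suprabasal level, so licensing transcripts remained in the resting gate.

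Resting basal cells differed among themselves in keratins, Dcn and immediate early genes, among others. To compare cells of unequal depth, 28213 cells were thinned to 3000 UMIs and 1162 shallower ones were left out. The variance of UMIs between cells of a mouse, divided by the mean, had a median of 1.03 over 4296 genes, close to the value of 1 that counting alone gives. It was 15.9 for Krt17, 12.4 for Krt15, 7.58 for the metallothionein Mt4, 6.38 for Krt6a, 6.23 for Fos and 4.74 for Dcn (medians of 12 mice). Other genes with high ratios were Cst6 (48.9), the nuclear RNA Malat1 (11.997), Gm42418 (7.07), Sbsn (5.90), Hspb1 (5.34) and Fabp5 (5.21), and Dcn ranked 19 of the 4296. The highest ratios, of cornified envelope genes such as Lor, stood beside a few cells, 46 in all and 0 to 8 per mouse, that held 30 or more UMIs of such genes. Cells high and low in a gene were then compared within each mouse. The split gene chose those cells, and other genes are given as a description with the number of mice in which they were higher or lower.

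Cells with 15 or more Krt15 UMIs numbered 1142, or 1.32% to 8.01% of a mouse, and 15688 cells had at most 1. In 2787 LCs thinned to the same depth, which should lack Krt15, 0 to 0.746% of a mouse's cells reached 15 UMIs. A UMI of Krt15 was found in 49.3% to 66.7% of resting basal cells and in 0 to 5.22% of LCs. These LCs were chosen with a low share of Krt5 and Krt14 UMIs, which leaves out LCs mixed with basal cell transcripts. The LC shares for Krt15, Krt17 and Dcn are therefore partly set by that choice. The part of doublets and of transcripts from other cells in these splits was not tested. Lhx2, a transcription factor of hair follicle stem cells, stood at 53.3 CPM in Krt15-high cells against 0.857 CPM in Krt15-low cells (medians of 12 mice), and was higher in 12 of 12 mice. The Wnt receptor gene Lgr5 stood at 42.1 against 3.89 CPM and the matrix protein gene Postn at 89.9 against 7.78 CPM, each in 12 of 12 mice. Cxcl14, a chemokine, stood at 671 against 273 CPM and Apoe at 3154 against 1466 CPM. Lower in Krt15-high cells of all 12 mice were Dcn (58.9 against 171 CPM), Klk8 (112 against 330 CPM), Ccnd1 (250.6 against 429.5 CPM) and Krtdap (1050 against 1768 CPM). The differentiation genes did not move together. Sbsn (424 against 83.9 CPM) was higher in 12 of 12 mice, and Krt10 was higher in 8 and lower in 4. Among genes higher in all 12 mice, Sbsn had the largest log2 ratio when 20 CPM was added to both values (2.12). The adhesion genes Col17a1, Itga6 and Itgb4 differed little, with median log2 ratios of -0.04, -0.13 and -0.16 and lower values in 7, 9 and 9 of the 12 mice. The epidermis came from glabrous skin, and whether Krt15-high cells were of its basal layer or of hair follicles was not tested.

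Cells with 4 or more UMIs of Dcn, the proteoglycan decorin, numbered 1118, or 2.50% to 5.28% of a mouse, and no LC reached that number in any of the 12 mice. Pappa, a protease of insulin-like growth factor binding proteins, stood at 226 against 43.7 CPM in cells without a Dcn UMI. Timp3, an inhibitor of metalloproteinases, stood at 278 against 76.0 CPM, Fst at 149.97 against 42.1 CPM and Lgr6 at 50.3 against 16.6 CPM. Each was higher in 12 of 12 mice. Krt10 (263 against 487 CPM), Krtdap (856 against 1665 CPM), Dapl1 (37.7 against 254 CPM) and Krt15 (700.2 against 1212 CPM) were lower in 12 of 12. Only 13 cells were high in both Krt15 and Dcn, where the shares of each, multiplied within mice, give 43.7.

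Cells with 10 or more UMIs of the stress and appendage keratin Krt17 numbered 526, or 0.66% to 4.43% of a mouse. Of LCs, 0 to 0.763% reached that number and 1.39% to 11.0% held a Krt17 UMI, and in female RD replicate 2 the LC share of 0.763% was close to the 1.00% of resting basal cells. Compared with cells without a Krt17 UMI, Krt6a stood at 2304 against 191 CPM, the transcription factor gene Sox9 at 657 against 79.8 CPM, Epcam at 479 against 78.3 CPM and Cst6, a cystatin, at 1481 against 22.9 CPM. All were higher in 12 of 12 mice. The Krt79 cells, which the rule leaves out by any Krt79 UMI, had median levels of 24047 CPM of Cst6, 4840 CPM of Krt17, 1721 CPM of Krt6a and 635 CPM of Sox9, and the part of such cells in the Krt17-high subset was not tested. Jag2 (28.0 against 83.3 CPM), Wnt4 (109 against 275 CPM) and Tgm3 (30.4 against 264 CPM) were lower in 12 of 12. A total of 101 cells were high in both Krt15 and Krt17, where the multiplied shares give 24.0.

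Fos, an immediate early gene that dissociation can induce, split the cells in another way. Cells with 12 or more Fos UMIs (2676 cells, 2.60% to 17.0% of a mouse) were higher in Socs3, Dusp1, Klf2, Egr1 and Jun in all 12 mice, and 1.91% to 14.9% of LCs also reached that number. They also had higher Krt15 (2030 against 876 CPM, 12 of 12 mice). Cells with 7 or more Col17a1 UMIs (3314 cells) were higher in Itga6 (555 against 364 CPM), Lama3, Lamb3, Plec and Dst in 12 of 12 mice, and lower in Krt10 (396 against 557 CPM), Sbsn and Fabp5.

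**Figure D2:**
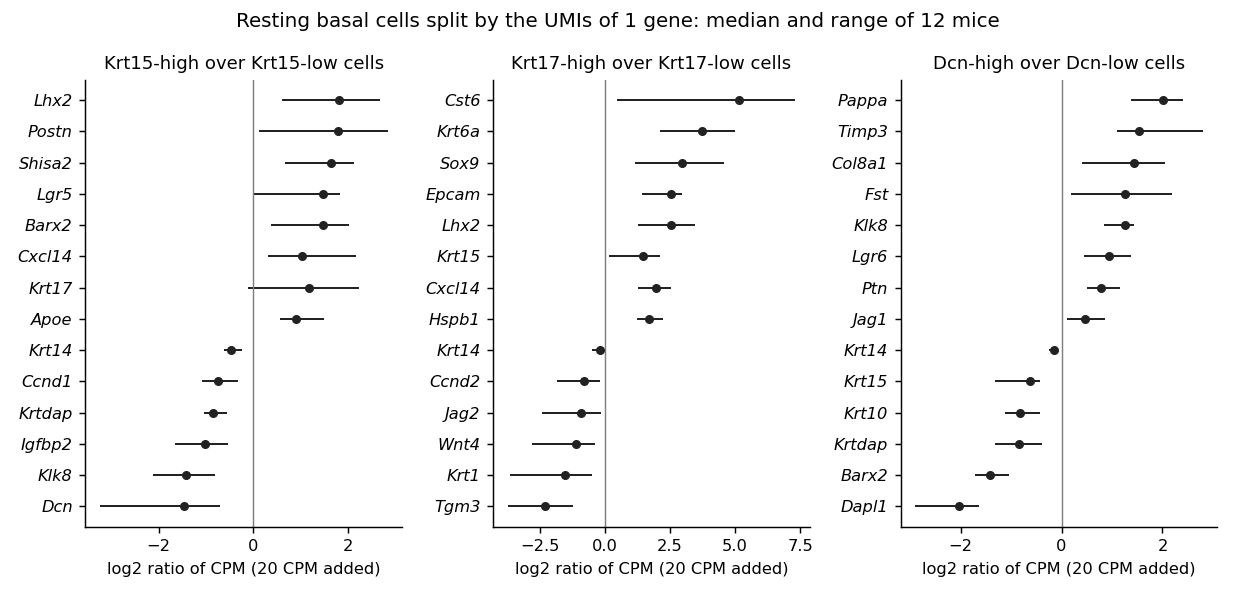
Log2 ratio of CPM, with 20 CPM added to both values, between resting basal cells high and low in Krt15, Krt17 or Dcn, with points at the median and lines from the lowest to the highest of 12 mice, on an axis of its own range in each panel. Dcn and Klk8 lay below 0 in Krt15-high cells, Krt15 lay below 0 in Dcn-high cells and above 0 in Krt17-high cells, and Krt14 lay slightly below 0 in all 3 splits.

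The share of resting basal cells among all cells was compared between diets. It was 19.3%, 22.5% and 21.5% in male RD mice and 17.5%, 19.8% and 23.0% in male HFD mice. In females it was 25.8%, 25.2% and 23.8% on RD and 25.8%, 30.7% and 24.5% on HFD. The groups overlapped in both sexes, with a difference of -0.996 percentage points in males (21.1% ± 1.66 and 20.1% ± 2.78, SD, n = 3; p = 0.7, two-sided exact permutation test) and 2.10 points in females (24.9% ± 1.03 and 27.0% ± 3.28, SD, n = 3; p = 0.4, exact). The sign in males was not stable, at 0.315 points without male HFD replicate 1, and in females the difference was 0.241 points without female HFD replicate 2. With a stricter cell rule, with limits of 2% and 0.2% in place of 1% and 0.5%, the female groups did not overlap (7.44% on RD and 9.26% on HFD, a difference of 1.81 points, p = 0.1, exact). A share is relative to the other cells of the library and does not give a number of cells per area.

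The cycling share of the basal gate changed sign between diets in males with the handling of depth. In males it was 32.2% ± 0.761 on RD and 33.7% ± 4.52 on HFD (SD, n = 3; p = 1.0, exact permutation test). When cells were thinned to 3000 UMIs before the rule was applied and shallower ones were left out (157 to 1074 cells a mouse in male RD, 76 to 290 in male HFD), it was 24.0% ± 1.98 on RD and 20.9% ± 0.819 on HFD, a difference of -3.15 points without overlap (p = 0.1, exact, the smallest possible). Thinning and the removal of shallow cells changed together in that comparison, and their parts were not tested apart. The G2 and mitotic share carried the difference, with 15.1% ± 0.548 on RD and 11.99% ± 1.096 on HFD (p = 0.1, exact), and the S-phase share was 8.95% ± 2.18 and 8.91% ± 0.898. At full depth the S-phase share had pointed the other way, 10.3% ± 0.704 on RD and 13.7% ± 2.85 on HFD, without overlap (p = 0.1, exact), as it did with the stricter cell rule (9.66% and 14.4%, p = 0.1, exact). In females the cycling share was 25.0% ± 3.51 and 26.7% ± 4.16 at full depth (p = 0.8, exact) and 18.7% ± 2.59 and 20.9% ± 2.85 at 3000 UMIs a cell (p = 0.2, exact).

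Krt15-high cells were a larger share of resting basal cells in each HFD mouse than in each RD mouse of the same sex. This share was measured only with the 1% limit on Krt5 and Krt14. Cells just outside that limit (0.8 to 1.0%) held more Krt15 than those just inside, at 2863 against 1755 CPM. Krt14 was lower in Krt15-high than in Krt15-low cells of all 12 mice. The share under another limit was not tested. The cells were chosen at full depth, where the male HFD cells were deeper, and thinned afterwards. Cells under 3000 UMIs were left out, 23 to 382 a mouse in male RD and 11 to 32 in male HFD. In females these were 63 to 108 on RD and 83 to 123 on HFD. The part of depth in the Krt15-high share was not tested. The shares at 3000 UMIs a cell were 2.56%, 3.64% and 4.57% in male RD and 8.01%, 5.15% and 6.36% in male HFD mice. In female mice they were 2.80%, 1.32% and 3.38% on RD and 4.63%, 5.99% and 3.52% on HFD. The difference was 2.92 points in males and 2.22 points in females, each with p = 0.1 by the exact permutation test and 0.333 after adjustment over the 10 comparisons of 5 splits in 2 sexes, a design in which no adjusted p can pass 0.05. Leaving out any 1 mouse gave differences of 2.16 to 3.60 points in males and 1.58 to 2.81 in females. Among the other 4 splits, the Col17a1-high share was also apart in females, with 17.8%, 13.5% and 13.9% on RD and 11.7%, 11.5% and 12.5% on HFD, a difference of -3.14 points (p = 0.1, exact, adjusted 0.333), and was 2.19 points higher on HFD in males with overlapping groups (p = 0.5, exact). The Krt17-high, Dcn-high and Fos-high shares overlapped between diets in both sexes. Krt15 summed over all resting basal cells stood at 1058, 1269 and 1423 TMM-scaled CPM in male RD, 1829, 1520 and 1549 in male HFD, 692, 488 and 745 in female RD and 951, 1105 and 746 in female HFD mice. Its log2 difference over both sexes was 0.46 ± 0.111 (SE), which did not pass (adjusted p = 0.161, edgeR). More Krt15-high cells and more Krt15 per cell cannot be told apart in the sums.

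**Figure D3:**
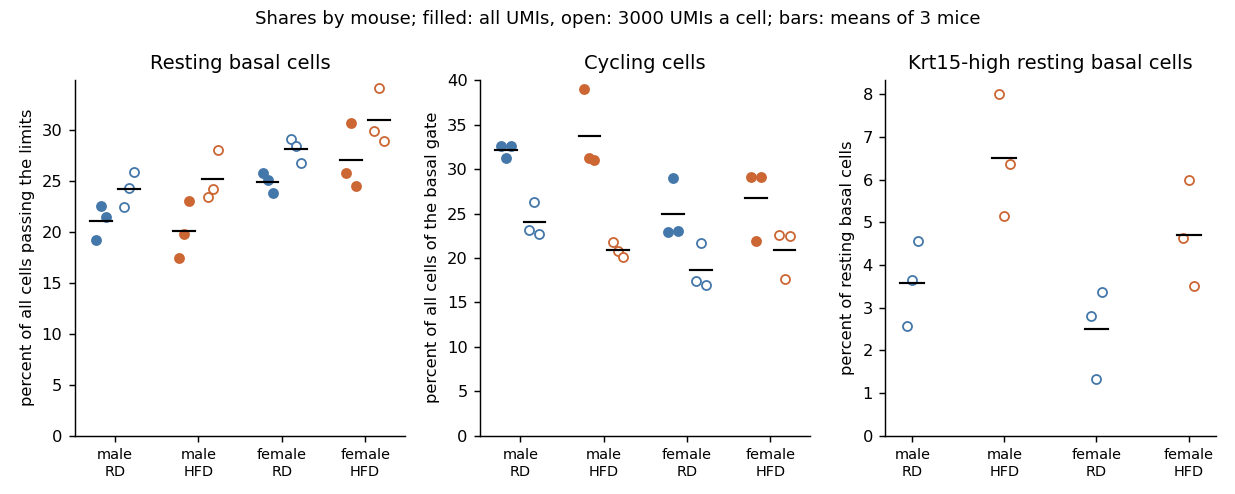
Share of resting basal cells among all cells, of cycling cells in the basal gate, and of Krt15-high cells among resting basal cells, in percent, for each of 12 mice, with bars at the mean of 3 mice. Filled points use all UMIs and open points 3000 UMIs a cell without shallower cells; the male HFD mice lie below the male RD mice in the cycling share of the open points only, and above them in the Krt15-high share.

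The question of the diet comparison was whether basal keratinocytes of HFD mice express other genes than those of RD mice. UMIs were summed over the resting basal cells of each mouse and compared with edgeR's quasi-likelihood test with Benjamini-Hochberg adjustment at 0.05. Levels in these comparisons are CPM scaled by TMM, the library scaling of edgeR. In males no gene passed among 11967 tested (0%), and 13 genes passed in DESeq2. An unadjusted 0.05, which a share of 0.05 of unchanged genes would also pass, was passed by 720. The 5 genes with the smallest p are given as values. Gpha2, a subunit of the glycoprotein hormone thyrostimulin, stood at 4.11, 5.40 and 5.12 CPM on RD and 10.7, 9.05 and 9.39 CPM on HFD. Efemp1, the matrix protein fibulin-3, stood at 9.76, 10.1 and 9.12 CPM on RD and 14.2, 15.9 and 17.2 CPM on HFD. Chka, a choline kinase of phospholipid synthesis, stood at 57.7, 60.2 and 66.2 CPM on RD and 42.6, 45.4 and 37.5 CPM on HFD. In none of these did the groups overlap, as in 11.5% of all 11967 genes, and the adjusted p was 0.334 for each (edgeR).

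The remaining genes of smallest p were mitotic. Birc5, the survivin gene, stood at 16.0, 22.6 and 20.1 CPM in male RD and 11.1, 11.6 and 8.72 CPM in male HFD mice. Hmmr, a protein of the mitotic spindle, stood at 4.31, 4.31 and 5.56 CPM on RD and 2.07, 2.09 and 2.08 CPM on HFD. The 5 markers of cycling keratinocytes had a median log2 difference of -0.69 in males, against -0.001 over all genes. All 5 were negative, and the groups were apart for 4 of the 5 and for 11.5% of all 11967 genes. The summed level of the 5 markers was 77.5 to 106 CPM on RD and 54.8 to 59.9 CPM on HFD. The rule removes cells with 3 or more mitotic UMIs, and the male HFD cells were deeper (7476.5 to 9109 against 4152 to 6782 UMIs in the median cell). With the cell rule applied to cells thinned to 3000 UMIs, an alternative chosen after seeing the data, the log2 difference of Birc5 went from -0.91 to -0.45 and that of Hmmr from -1.17 to -0.66 (adjusted p = 0.625 and 0.406, edgeR). The cause of the lower mitotic values was not tested.

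In females, 88 of 14190 genes passed (0.62%), 49 higher (0.345%) and 39 lower (0.275%) on HFD, with absolute log2 changes of 0.37 to 1.33. The 10 with the largest change whose groups did not overlap included genes at low levels, such as Gria3, an AMPA glutamate receptor subunit, at 0.935, 1.25 and 1.24 CPM on RD and 2.30, 3.17 and 3.33 CPM on HFD. It rose by a log2 change of 1.33 ± 0.218 (adjusted p = 0.0344, edgeR). Nckap5 rose from 16.8, 17.3 and 22.0 CPM to 40.5, 34.8 and 32.6 CPM (0.92 ± 0.119, adjusted p = 0.0291). Tnfrsf18, which encodes the costimulatory receptor GITR, rose from 7.08, 10.2 and 9.12 CPM to 14.5, 19.99 and 16.2 CPM (0.92 ± 0.153, adjusted p = 0.0356). Steap4, a metalloreductase, and Hddc3 rose by 1.02 and 1.14 on the log2 scale, from 3.65 to 4.46 and 0.871 to 1.02 CPM on RD. Fkbp5, a co-chaperone of steroid receptors that glucocorticoids induce, fell from 18.5, 22.0 and 19.2 CPM to 8.86, 11.4 and 11.5 CPM, a log2 change of -0.93 ± 0.12 (adjusted p = 0.0291). Slc52a3, a riboflavin transporter, and Dna2, a nuclease of DNA replication, fell by 0.91 and 1.15 on the log2 scale. Dna2 was at -0.85 when the rule was applied to cells thinned to 3000 UMIs, an alternative chosen after seeing the data (adjusted p = 0.0445, edgeR). With the stricter cell rule described above Fkbp5 and Nckap5 passed, but Slc52a3 and Dna2 (-0.60 for both, adjusted p = 0.345 and 0.444), Gria3 (0.107), Hddc3 (0.237), Steap4 (0.103) and Tnfrsf18 (0.0521) did not. With equal numbers of cells thinned to 5000 UMIs Gria3 (0.19), Hddc3 (0.154), Steap4 (0.0641), Dna2 (0.276) and Slc52a3 (0.0618, at -1.62) did not pass (edgeR). With the replicate number as a block Fkbp5 and Tnfrsf18 passed (adjusted p = 0.0446 for both, edgeR). Nckap5 (0.065), Gria3 (0.0678), Steap4 (0.0674), Hddc3, Dna2 and Slc52a3 (0.108 for each) did not pass with that block. Separate RD and HFD groups were a condition for naming these genes, and 20.9% of 13973 genes of the female comparison also had separate groups.

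The female count rested on the full set of mice. Without female RD replicate 1, RD replicate 2 or HFD replicate 1 no gene passed, without RD replicate 3 and HFD replicate 3 it was 4 and 10, and without HFD replicate 2 it was 320. All 88 genes kept their direction in each of these fits, which share most of the mice that chose the genes. In males, 87 of the 88 were tested and 37 (42.5%) had the same sign, compared with 54.2% of 11854 genes tested in both sexes. The median male log2 difference was -0.03 for genes higher and 0.02 for genes lower in female HFD mice.

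The metallothionein genes Mt1, Mt2 and Mt4 fell in females. They encode small proteins that bind zinc and copper, and their genes lie within 1 region of chromosome 8 of GRCm38, Mt4 at 94137197 to 94139031, Mt2 at 94172664 to 94173568 and Mt1 at 94179082 to 94180327, all protein-coding on the + strand. Mt2 was among the genes of smallest p in the comparison of the diet effects between sexes, and Mt1 and Mt4 were added after their values were seen. In female RD mice Mt1 stood at 1671, 1414 and 1529 CPM and in female HFD mice at 902, 1068 and 854 CPM. Mt2 stood at 1562, 1359 and 1367 CPM on RD and at 866, 970 and 791 CPM on HFD. Mt4 stood at 1049, 861 and 881 CPM on RD and at 579, 655 and 568 CPM on HFD. No HFD mouse reached the level of an RD mouse, and the 3 genes fell by 0.73, 0.73 and 0.66 on the log2 scale (SE 0.098, 0.091 and 0.093; adjusted p = 0.0291, 0.0291 and 0.03, edgeR). Each of the 3 calls was lost in 6 of 14 alternatives (adjusted p up to 0.165), with the same direction in all 14. In males Mt1 stood at 4843, 3476 and 3996 CPM on RD and at 4234, 4123 and 4877 CPM on HFD, with overlapping groups and a log2 difference of 0.10 ± 0.118. The difference between the diet effects of the sexes did not pass for Mt1 (adjusted p = 0.137), Mt2 (0.0624) or Mt4 (0.74). For Mt2 it passed in 10 of 20 alternatives, with a log2 difference of 0.83 to 0.996 in all 20.

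The sequences in front of these genes are shown because each of the 3 genes fell in females and because metal response elements, which the zinc-sensing factor Mtf1 binds, are known near metallothionein genes. They are the 250 bases before the RefSeq start of each gene (GRCm38.p6, chromosome 8, + strand, 5′ to 3′), with capitals at each match of the core TGCACNC or TGCGCNC on either strand.
Mt4 (chr8:94136954-94137203): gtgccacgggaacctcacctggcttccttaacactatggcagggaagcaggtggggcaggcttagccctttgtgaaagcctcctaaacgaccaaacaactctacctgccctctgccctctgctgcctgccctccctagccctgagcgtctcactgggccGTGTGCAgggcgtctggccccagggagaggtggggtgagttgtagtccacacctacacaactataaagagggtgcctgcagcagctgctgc
Mt2 (chr8:94172368-94172617): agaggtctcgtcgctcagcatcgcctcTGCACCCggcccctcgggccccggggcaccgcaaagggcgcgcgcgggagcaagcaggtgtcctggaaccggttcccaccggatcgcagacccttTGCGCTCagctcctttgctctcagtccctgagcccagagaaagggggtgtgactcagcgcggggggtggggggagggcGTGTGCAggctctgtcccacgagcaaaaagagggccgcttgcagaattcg
Mt1 (chr8:94178839-94179088): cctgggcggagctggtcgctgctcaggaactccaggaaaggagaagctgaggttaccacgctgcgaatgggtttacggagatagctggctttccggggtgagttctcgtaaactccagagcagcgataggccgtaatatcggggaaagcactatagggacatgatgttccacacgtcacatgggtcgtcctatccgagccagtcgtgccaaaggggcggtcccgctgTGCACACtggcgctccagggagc
There were 1, 3 and 1 matches, which did not overlap each other. Of 32851 promoter windows of this length, 21.4% held at least 1 match and 1.26% at least 3. A match is a run of letters and not a bound site. Only these windows were searched, and elements past the RefSeq start or further upstream were not counted. The numbers therefore do not give all known elements of a gene.

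Over both sexes, with sex as a covariate, 5 of 14213 genes passed (0.0352%), 4 higher (0.0281%) and 1 lower (0.00704%) on HFD. Tcf7, which encodes the Wnt effector TCF-1 (chromosome 11, 52252371 to 52283014, - strand), was the lower one. It stood at 13.5, 13.1 and 11.0 CPM in male RD, 7.46, 10.4 and 9.52 in male HFD, 19.8, 24.8 and 21.0 in female RD and 12.8, 13.9 and 12.4 in female HFD mice. Groups were apart in both sexes, and Tcf7 fell by 0.63 ± 0.093 on the log2 scale (adjusted p = 0.0393, edgeR). Igfbp6, a binding protein with a preference for insulin-like growth factor 2 (chromosome 15, 102144362 to 102149511, + strand), stood at 48.5, 53.2 and 46.1 CPM in male RD, 66.8, 58.7 and 56.7 in male HFD, 40.6, 41.9 and 43.4 in female RD and 62.2, 56.5 and 61.8 in female HFD mice. It rose by a log2 change of 0.41 ± 0.063 (adjusted p = 0.0393), and the groups were apart in both sexes.

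Gpha2 stood at 1.26, 2.46 and 2.37 CPM in female RD and 4.69, 2.81 and 4.65 CPM in female HFD mice, beside the male values above, and rose by 0.99 ± 0.163. Slc4a8, a bicarbonate transporter, stood at 14.5, 12.5 and 11.5 CPM in male RD, 23.2, 17.1 and 19.8 in male HFD, 6.18, 6.67 and 8.90 in female RD and 17.9, 11.2 and 17.6 in female HFD mice, and rose by 0.88 ± 0.139. Vsnl1, a neuronal calcium sensor, rose by 0.88 ± 0.143, with overlapping groups in males and separate groups in females (all adjusted p = 0.0393, edgeR). This count was fragile: it was 0 without male RD replicate 1, male HFD replicate 1, female HFD replicate 1, female HFD replicate 3 or any 1 of the 3 female RD mice, 1 without male RD replicate 2, 24 without male RD replicate 3 and 11 without female HFD replicate 2. No gene of the 5 changed direction in any of these fits, which share most of the mice that chose the genes. With a replicate block Gpha2 (adjusted p = 0.117) and Igfbp6 (0.0714) did not pass, with the stricter cell rule Gpha2 (0.262) and Slc4a8 (0.0578) did not, and with equal numbers of cells thinned to 5000 UMIs none of the 5 did (edgeR).

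The diet effects of the sexes differed for 2 of 14213 genes (0.0141%). In this comparison, too, sex and the version of the counting software cannot be told apart. Slc27a3, of the fatty acid transport protein family (chromosome 3, 90385239 to 90389938, - strand), stood at 34.9, 37.8 and 42.6 CPM in male RD, 35.1, 31.0 and 28.2 in male HFD, 29.1, 26.1 and 27.2 in female RD and 53.7, 47.2 and 47.0 in female HFD mice. The log2 difference was -0.29 in males and 0.82 in females, and the test of their difference gave an adjusted p of 0.00676 (edgeR). Eef1akmt1, a methyltransferase of the elongation factor eEF1A, stood at 38.7, 42.2 and 42.8 CPM in male RD, 35.7, 35.8 and 35.4 in male HFD, 19.3, 19.5 and 19.8 in female RD and 28.1, 26.5 and 27.5 in female HFD mice (adjusted p = 0.0230). Pycard, the inflammasome adaptor ASC, rose in females from 107, 109 and 95.7 CPM to 164, 174 and 152 CPM (log2 change 0.63 ± 0.073, adjusted p = 0.0212), stood at 261 to 314 CPM on RD and 247 to 311 CPM on HFD in males, and had an adjusted p of 0.137 for the difference between the sexes.

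**Figure D4:**
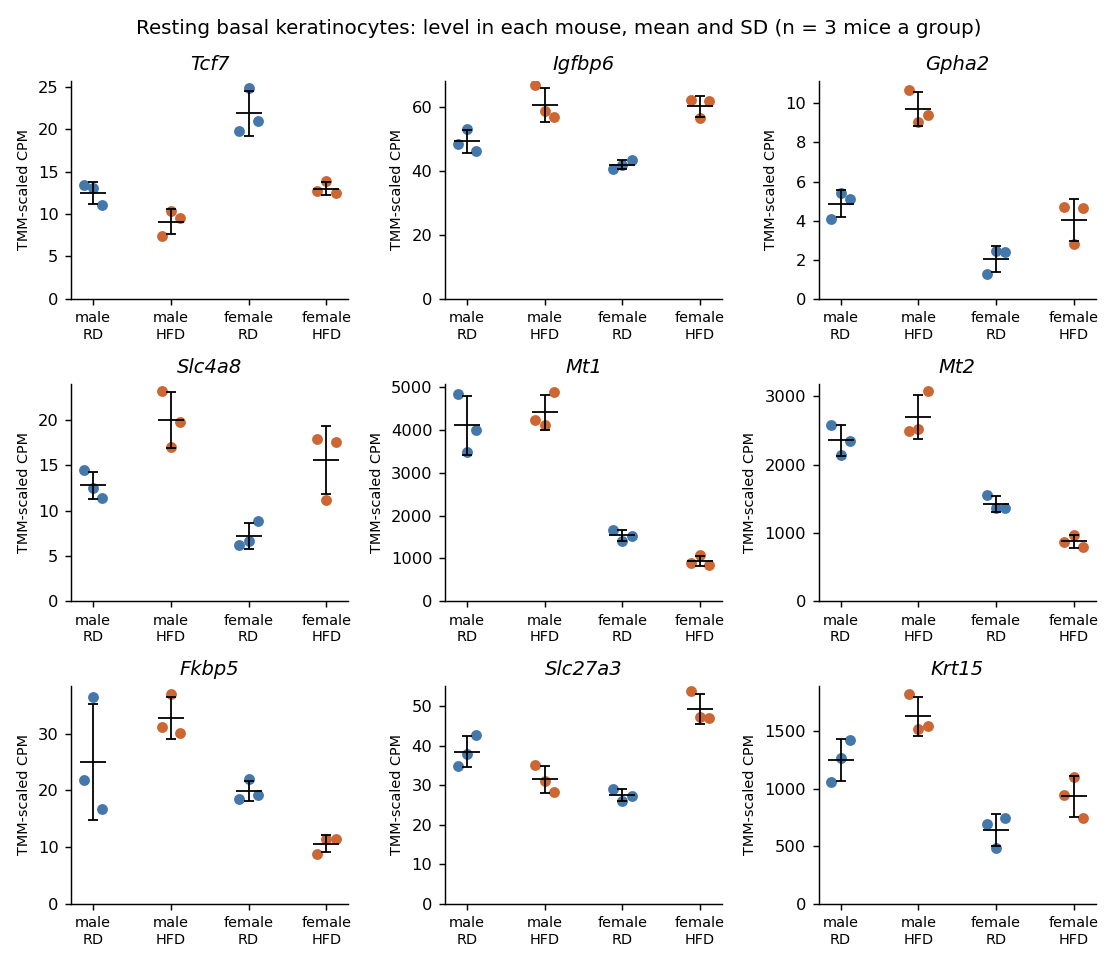
TMM-scaled CPM of 9 genes in resting basal cells of each mouse, with horizontal marks and error bars for the mean and SD of 3 mice, on a linear axis from 0. Tcf7 lies lower and Igfbp6, Gpha2 and Slc4a8 higher in each HFD mouse than in each RD mouse of the same sex, Mt1, Mt2 and Fkbp5 are lower in each female HFD mouse than in each female RD mouse and overlap between diets in males, Slc27a3 is higher in female HFD mice, and Krt15, which did not pass the test, is shown for comparison.

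Genes of the pathways of basal cells were then counted over 22 lists. In males no list member passed, and in females and over both sexes only Tcf7 (Wnt signalling, 1 of 24) and, in females, H2-K1 (interferon-stimulated genes, 1 of 14) did, where 0.62% of all genes passed in females and 0.0352% over both sexes. Of all genes tested, 5950 of 11967 had a positive difference in males and 7177 of 14190 in females. H2-K1, which encodes a class I antigen presenting molecule, stood at 70.1, 64.2 and 77.3 CPM on RD and 105, 97.5 and 106 CPM on HFD in females and rose by 0.52 ± 0.080 (adjusted p = 0.0312, edgeR), a call lost in 7 of 14 alternatives (adjusted p up to 0.165). For the 15 basal identity genes the median log2 difference was 0.03 in males and -0.10 in females, and for the 24 hemidesmosome and basement membrane genes 0.02 and -0.09, against medians over all genes of -0.001 and 0.003. The 16 genes of replication licensing had medians of -0.002 in males and -0.30 in females, with 2 of 16 positive in females. The rule removes cells with 3 or more S-phase UMIs. The median female cell held 9145 to 10408 UMIs on HFD and 6744 to 9220 on RD, and the part of depth in these medians was not tested. Medians for the 26 genes of cholesterol and fatty acid synthesis were -0.22 and -0.13, with 7 and 6 of 26 positive. The interferon-stimulated genes had medians of 0.23 and 0.21, with 11 of 13 and 12 of 14 positive. The 13 mitochondrially encoded genes were all positive in females, with a median of 0.21, and the median mitochondrial share of the female HFD cells was 2.05 to 2.77% against 1.92 to 2.05% on RD. Insulin signalling, glycolysis, clock and immediate early genes had medians between -0.08 and 0.04 in both sexes.

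The diet effect was also compared between resting basal and suprabasal cells of the same mice. None of 16180 genes passed in edgeR (0%), 1019 had an unadjusted p under 0.05, and DESeq2 called 3. Of the 5 genes with the smallest p, Ptgds and the melanocyte gene Tyrp1 were at or below 1.48 TMM-scaled CPM in all 12 sums of resting basal cells. Mycl, a member of the Myc family, stood at 24.4 to 27.2 CPM in males and at 34.7, 39.5 and 38.3 CPM in female RD and 27.4, 34.8 and 34.0 CPM in female HFD mice. Procr and Rab27a stood at 12.8 to 31.6 and 1.74 to 4.06 CPM. The 3 genes of DESeq2 were Ptgds, Procr and S100a10 (adjusted p = 0.0462 for each), and edgeR with the stricter cell rule called 2, Kif26b and Tppp3.

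Male and female sums differed for 10765 of 14213 genes (75.7%), 5049 higher and 5716 lower in males. This comparison coincides with the version of the counting software, and sex and software cannot be told apart. Xist and Ddx3y matched the labelled sex in all 12 libraries.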

How the data were processed

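Single cells of paw epidermis from 12 mice were analysed from the deposited 10x matrices of UMI counts. The authors aligned the reads to the mouse transcriptome mm10-2020-A with Cell Ranger, which collapses reads of 1 molecule by its UMI. The submitters' processing notes give version 7.2.0 for all samples, whereas the file headers give 6.1.0 for the male and 7.2.0 for the female libraries. Whether intronic reads were counted is not given in the sources used here. Libraries held 134449247 to 194673581 UMIs in all, and the summed resting basal cells 10636088 to 30170997 per mouse. Intervals for single samples were not needed because every comparison used 3 mice per group. The labels do not say whether the mice of a group shared a cage or day, so p-values measure the spread between these mice.

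The cell rule given in the opening, the gene lists (22 lists of pathways and 13 of cell type markers) and the splits were chosen with earlier results of these data known. Counts were summed over the chosen cells of a mouse and tested with edgeR 4.0.16 (filterByExpr, TMM, quasi-likelihood, Benjamini-Hochberg at 0.05) in R 4.3.3. Both-sex and interaction fits held all 12 mice with sex as a covariate, the male and female fits only their own mice, and the comparison with suprabasal cells had mouse as a block. Shares were compared with 2-sided exact permutation tests. The code was tested on simulated data. The text names the 10 called genes with the largest change and groups that did not overlap, and the 5 with the smallest p where fewer than 5 were called, besides called list members and, as values, the 4 highest of a list. Other named genes were chosen after their values were seen. Alternatives were DESeq2 1.42.0, other size factors, no filter on low counts, a stricter cell rule, removal of the deepest 5% of cells, equal numbers of cells thinned to 5000 UMIs, a limit of 10% mitochondrial UMIs for the shares, a replicate block, and leaving out each mouse. Gene positions are from GENCODE vM21 on GRCm38 and promoters from RefSeq on GRCm38.p6. Doublets were not removed.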

Additional observations from a re-analysis of the deposited data

Results flagged for a closer look

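The diet effect on Slc27a3 in resting basal cells differed between the sexes by -1.14 on the log2 scale (male minus female), as tested by the interaction term over 12 mice (adjusted p = 0.00676, edgeR). Sex and counting software cannot be told apart in that term. Female HFD mice were higher than female RD mice in 3 of 3, and the male groups overlapped. Over 20 alternatives the difference ranged from -1.21 to -1.03 and passed in 19. It did not pass without male HFD replicate 2 (adjusted p = 0.0512). For Eef1akmt1 the diet effects differed by -0.70 (adjusted p = 0.0230), with separate RD and HFD groups of opposite order in the 2 sexes. That difference passed in 8 of 20 alternatives and ranged from -0.72 to -0.62, with adjusted p up to 0.209.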

How the results depend on the processing

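In males, where 0 genes passed, the fit without a filter on low counts gave 175, DESeq2 gave 13, and the rule applied to cells thinned to 3000 UMIs, chosen after seeing the data, gave 2, both melanocyte genes. Leaving out 1 mouse gave 0 to 6. In females the 88 calls became 285 without the filter, 279 with DESeq2, 32 with the stricter cell rule and 36 with equal numbers of thinned cells, and 0 to 320 on leaving out 1 mouse. Over both sexes the 5 calls became 231, 93, 11 without the deepest 5% of cells and 1 with equal numbers of thinned cells, which was none of the 5, and 0 to 24 on leaving out 1 mouse. For the diet by sex interaction the 2 calls became 4 with RLE size factors, 158 without the filter, 46 with DESeq2, 5 with the stricter rule, 5 without the deepest cells and 7 with thinned cells, and 0 to 47 on leaving out 1 mouse. For the basal against suprabasal diet effect the 0 calls became 187, 3, 2 with the stricter rule, 1 without the deepest cells and 1 with equal numbers, and 0 to 1 on leaving out 1 mouse. The cause of these changes was not tested.

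With the replicate block the counts were 0 in males, 7 in females, 5 over both sexes, of which 3 were among the 5 without it, and 4 for the interaction. Whether mice of the same number were paired is not given. Deviations of same-numbered RD and HFD mice correlated at -0.138, 0.05 and -0.065 in males and -0.081, 0.088 and 0.256 in females. Those of unlike number correlated at -0.111 to 0.205 in males and -0.274 to 0.201 in females. So few pairs cannot decide whether mice of the same number shared a cage or day. No replicate block can be fitted for sex.

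The difference in the resting basal share of males, -0.996 points, was 0.624 with the stricter rule, 1.02 with thinned cells and -2.45 to 0.315 on leaving out 1 mouse. The male difference in the cycling share, 1.58 points, was 4.43 with the stricter rule, -3.15 with thinned cells and -1.03 to 2.95 on leaving out 1 mouse, negative without male HFD replicate 1.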

Other observations

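Other values of resting basal cells belonged in no comparison above. Without male RD replicate 2, edgeR called 6 of 12029 genes in males, with Tgm3, Zbtb16 and Tsc22d3 higher and Idi1, Fdft1 and mt-Atp8 lower on HFD. None of these was called with all 6 male mice, and they are named after their values were seen. Fkbp5, which fell in females, stood at 21.9, 36.4 and 16.8 TMM-scaled CPM in male RD and 31.1, 37.0 and 30.04 in male HFD mice, with overlapping groups, and its diet effects in the 2 sexes did not differ past the threshold (adjusted p = 0.171, edgeR).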
